A study of Mus musculus with 6 samples.

Results

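Gli3 binding near the SoxB and SoxE genes was described in the cortex of the mouse embryo, from the positions of all Gli3 sites within 200 kb of the transcription start site (TSS) of *Sox1*, *Sox2*, *Sox3*, *Sox21*, *Sox8*, *Sox9* and *Sox10*. A site was taken into the description when its midpoint lay within 200 kb of the gene-level TSS, on either side, and it was marked when no other protein-coding gene had a nearer TSS. Of the 4114 sites deposited, 24 met the distance rule and 11 of these had 1 of the 7 Sox genes as their nearest coding gene. The sites came from chromatin immunoprecipitation and sequencing (ChIP-seq) of wild-type cortex dissected at embryonic day 15, with 3 libraries precipitated with an antibody to Gli3 and 3 input libraries of chromatin that was not precipitated. The authors joined the 3 replicates into 1 list of positions with no height, score or p-value. Replicates therefore cannot be compared, no error between embryos is available, and the read depth behind a site is unknown.

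Sox proteins are transcription factors that bind DNA through an HMG box. The SoxB1 proteins *Sox1*, *Sox2* and *Sox3* keep neural stem cells undifferentiated, and *Sox21*, of the SoxB2 group, is known to counteract them. The SoxE proteins act later and in glia: *Sox9* marks radial glia, glial progenitors and astrocytes, *Sox10* marks the oligodendrocyte lineage, and *Sox8* is expressed with both. Gli3 is the zinc finger factor through which the absence of Sonic hedgehog signaling represses target genes, and Gli proteins recognise the core GACCACCCA. The list gives where Gli3 was found, not the transcription of any gene, so the cell types of the tissue could not be checked against their markers.

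The 3 copies of the exact GLI core in the 11 marked sites are shown here because they are the sequence that Gli factors recognise. All coordinates are of mm10, the sequences are read 5′ to 3′ on the stated strand from GRCm38, and capitals mark the core.
*Sox1* site 3, chr8:12432396-12432464, plus strand: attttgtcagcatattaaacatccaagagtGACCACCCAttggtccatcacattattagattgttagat
*Sox8* site 3, chr17:25571254-25571322, minus strand: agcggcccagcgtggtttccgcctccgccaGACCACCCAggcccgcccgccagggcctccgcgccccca
*Sox8* site 4, chr17:25568952-25569020, minus strand: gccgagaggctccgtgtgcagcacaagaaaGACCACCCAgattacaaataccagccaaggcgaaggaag
The core of *Sox1* site 3 lay in an exon of the noncoding gene *Sox1ot*, 37.13 kb downstream of the *Sox1* TSS. The core of *Sox8* site 3 lay 0.602 kb upstream of the *Sox8* TSS, in an intron of the antisense gene *2810468N07Rik*. The core of *Sox8* site 4 lay 1.7 kb downstream of the TSS, inside coding sequence of *Sox8*. A 9-base word that differed from the core at 1 position was present in coding sequence of *Sox9* and near the middle of the widest *Sox2* site, and these words are shown in capitals for comparison.
*Sox9* site 2, chr11:112783849-112783917, plus strand: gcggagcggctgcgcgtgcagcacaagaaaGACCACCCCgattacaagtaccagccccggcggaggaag
*Sox2* site 3, chr3:34662662-34662730, plus strand: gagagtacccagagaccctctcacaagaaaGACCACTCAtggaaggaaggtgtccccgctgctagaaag
Counted from 1 at the 5′ end of the core, the difference was A9C in the *Sox9* word and C7T in the *Sox2* word.

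The 7 genes differed in how many sites surrounded them. *Sox8* had 7 sites within 200 kb, *Sox1* had 5, *Sox2* had 4, *Sox21* and *Sox10* had 3 each, *Sox9* had 2 and *Sox3* had 0. A site within 200 kb was common in the genome, since 53.2% of the 21938 protein-coding genes had at least 1, against 6 of the 7 Sox genes. At least as many sites as the median Sox gene were found at 12.77% of coding genes. The count of marked sites was more selective. *Sox2* was the nearest coding gene of 4 sites, *Sox1*, *Sox8* and *Sox9* of 2 each, *Sox21* of 1, and *Sox3* and *Sox10* of 0. Thus 5 of the 7 Sox genes were the nearest coding gene of at least 1 site, compared with 13.2% of all coding genes. A site midpoint lay within 20 kb of the TSS for 5 of the 7, compared with 13.4% of all coding genes. Being the nearest coding gene of at least 4 sites was a feature of 0.273% of coding genes, and of *Sox2* among the 7. The order by marked sites was not the order by all sites, because *Sox8* lies among 9 other coding TSS within 200 kb, *Sox10* among 15, *Sox21* among 4 and *Sox1* among 2, whereas *Sox2*, *Sox3* and *Sox9* have no other coding TSS in that window. Every site in the windows of *Sox2* and *Sox9* was marked, so the isolation of these 2 genes enters their counts. *Sox3*, equally isolated, had 0 sites in its window, so none could be marked.

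**Figure D1:**
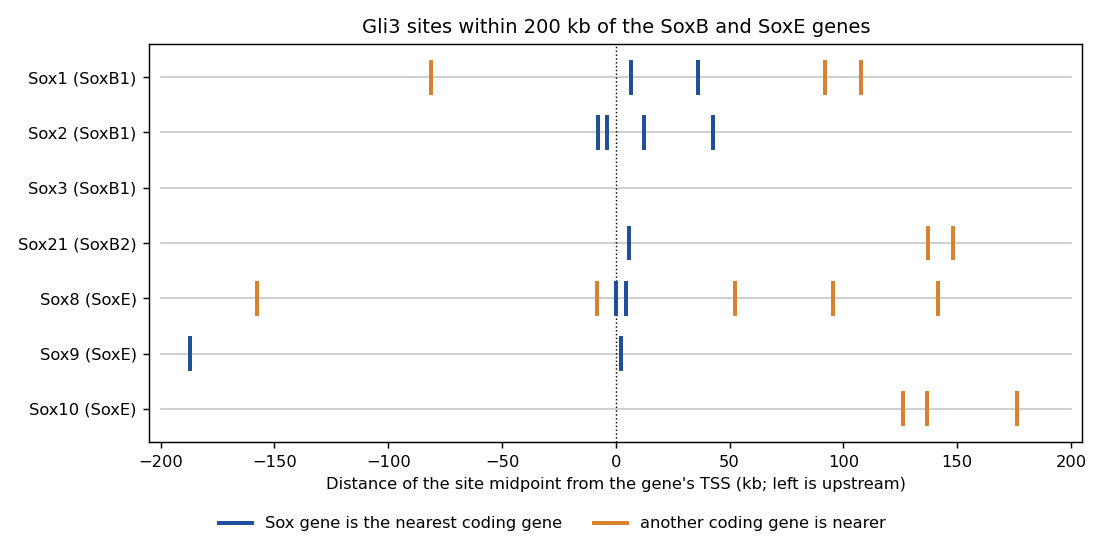
Each tick is the midpoint of a Gli3 site, plotted by its distance in kb from the TSS of the Sox gene named at the left, with upstream to the left. Blue ticks are the 11 sites whose nearest coding gene is that Sox gene and orange ticks the 13 that have a nearer coding gene, and *Sox3* has 0 sites while all 3 of *Sox10* are orange.

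**Figure D2:**
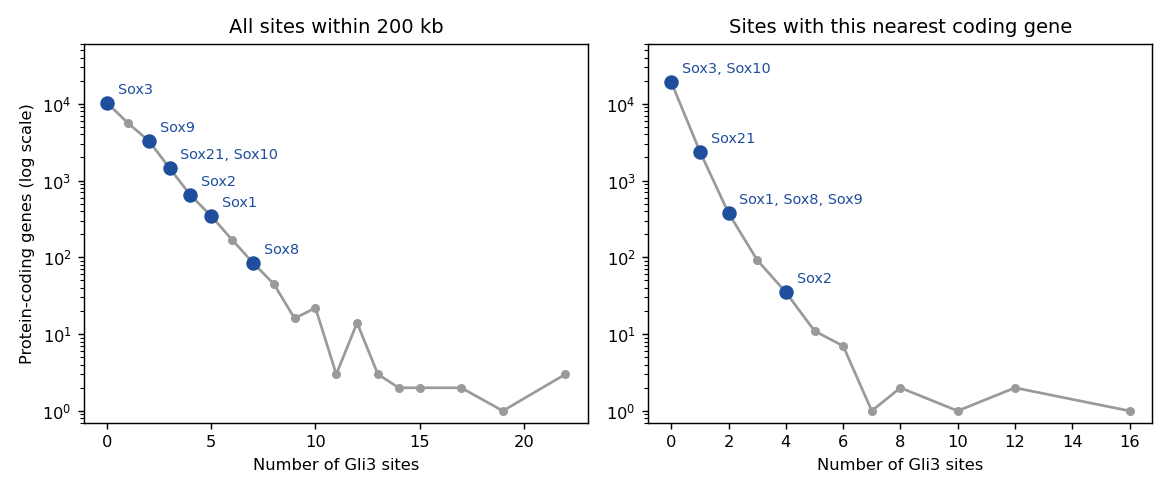
The number of protein-coding genes (log scale) is plotted against the number of Gli3 sites within 200 kb (left) and of sites for which the gene is the nearest coding gene (right), over 21938 genes. The Sox genes are marked in blue, with *Sox8* at 7 sites on the left and *Sox2* at 4 sites on the right.

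*Sox2*, which maintains neural stem cells, had the most marked sites of the 7, and they lay on both sides of the gene. Site 1 (chr3:34641225-34644061, 2837 bp) was centred 7.762 kb upstream of the TSS, and site 2 (chr3:34646055-34646833, 779 bp) was centred 3.961 kb upstream. Site 3 (chr3:34659816-34665714, 5899 bp) was centred 12.36 kb downstream and site 4 (chr3:34691968-34694160, 2193 bp) was centred 42.66 kb downstream. None of the 4 covered the *Sox2* TSS or any part of its 1 exon. Together the 4 sites held 11708 bp within a stretch of 52.94 kb, and 3 of them lay within introns and exons of *Sox2ot*, the long noncoding gene that overlaps *Sox2* on the same strand. Site 1 and site 2 contained only intron of *Sox2ot*, and site 3 contained 206 bp of its exons. Site 1 also covered the start of *Gm42692* and site 3 the whole of *Gm42693*, both transcripts of unverified coding potential, which put these sites in the promoter class. Site 4 was intergenic. Site 3 stood out by its width, as 1.879% of all sites were wider. Site 2 stood out by its base composition, with a GC content of 39.28%, and 97.76% of all sites had a higher one.

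No exact GLI core was found in the 4 *Sox2* sites. Site 3 had 4 words within 1 mismatch of the core, with the substitutions C7A, A9T, G1A and C7T, and the last of these was 69 bp from the middle of the site. Site 1 had 1 such word, with A5C, 447 bp from its middle, and sites 2 and 4 had none. Site 3 also held 6 copies of the SOX word AACAAT and 3 of the GC box GGGCGGGG, a word bound by SP factors. Site 2 held 4 copies of TAATTA, a word recognised by homeodomain proteins, within its 779 bp, and 3 of these fell in the 197 bases printed here, with the copies in capitals.
*Sox2* site 2, chr3:34646121-34646317, plus strand: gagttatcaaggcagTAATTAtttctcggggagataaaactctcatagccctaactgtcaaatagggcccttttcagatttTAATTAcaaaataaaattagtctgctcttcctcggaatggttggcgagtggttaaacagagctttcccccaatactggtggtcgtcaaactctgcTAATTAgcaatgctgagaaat

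*Sox1*, expressed in dividing neural progenitors, had marked sites only downstream. Site 2 (chr8:12400330-12403836, 3507 bp) began 203 bp past the annotated 3′ end of the gene and was centred 6.788 kb from the TSS. Site 3 (chr8:12429730-12432732, 3003 bp) was centred 35.94 kb downstream and carried the exact core printed above, at 89.91% of the length of the site, 1199 bp from its middle. Both lay wholly within *Sox1ot*, a noncoding gene that overlaps *Sox1* on the same strand. Site 2 contained intron of it and site 3 contained 2189 bp of its exons. The other 3 sites in the window had nearer coding genes. Site 1, 81.29 kb upstream, was nearest to *A230072I06Rik*, and sites 4 and 5, 91.8 kb and 107.7 kb downstream, were nearest to *Spaca7*. The midpoint of site 5 was 84 bp from the start of the lincRNA gene *4933439N14Rik*.

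*Sox21* had 1 marked site, placed much like site 2 of *Sox1*. It (chr14:118229306-118233215, 3910 bp) began 16 bp past the annotated 3′ end of *Sox21* and was centred 5.77 kb from the TSS. It held 5 copies of TAATTA and 3 of AACAAT, but no word within 1 mismatch of the GLI core. A site that begins within 1 kb beyond the 3′ end was found for 2 of the 7 Sox genes, *Sox1* and *Sox21*, for 0 of the 13 other Sox genes, and for 0.337% of coding genes. This distance was chosen after the positions were seen. The 2 remaining sites of the *Sox21* window lay 137.4 kb and 148.2 kb downstream. The nearer of them (514 bp) was nearest to *Tgds*, had a GC content of 70.04% and consisted entirely of soft-masked repeat sequence. The farther (3847 bp) was nearest to *Dct*. *Sox3*, the X-linked SoxB1 gene, had 0 sites, and the closest site on its chromosome (799 bp) was 395.4 kb downstream and nearest to *Gm7073*.

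**Figure D3:**
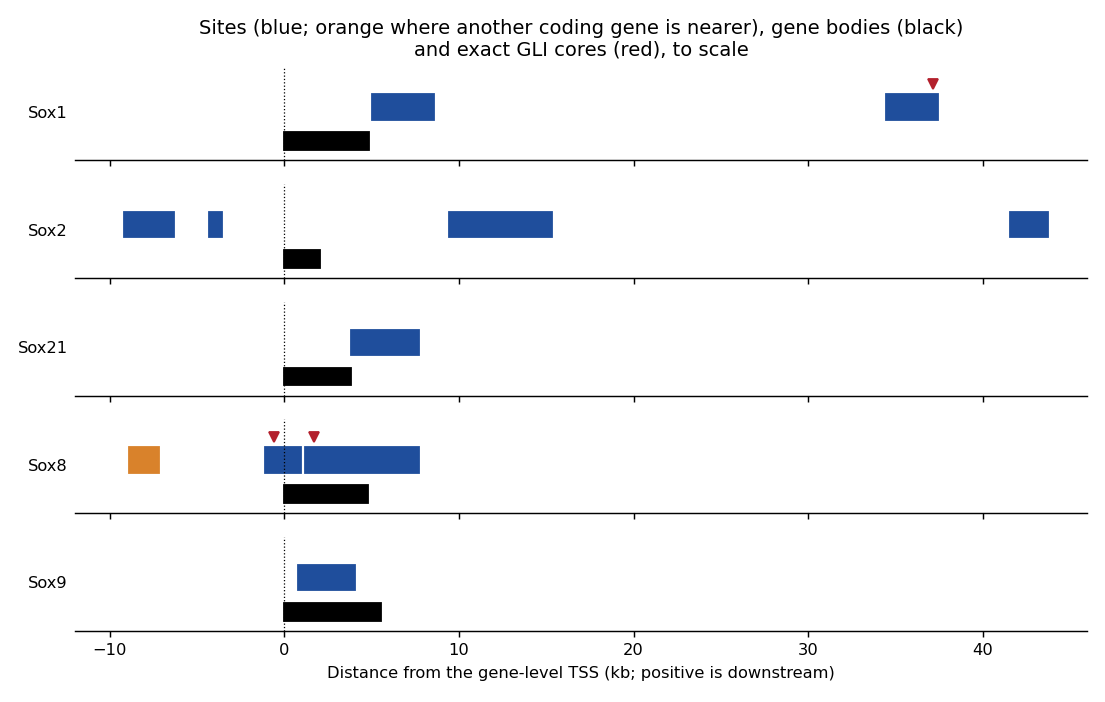
Gli3 sites (boxes above), the Sox gene body (black box below) and exact GLI cores (red triangles) are drawn to scale by distance in kb from the TSS, from 12 kb upstream to 46 kb downstream, for the 5 Sox genes with a marked site; the orange site is the 1 nearest to *Lmf1*. The sites of *Sox1*, *Sox2* and *Sox21* lie beside the gene bodies and those of *Sox8* and *Sox9* lie over them.

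Among the SoxE genes, *Sox8* was covered almost from end to end. Site 3 (chr17:25569723-25571795, 2073 bp) was centred 0.073 kb upstream of the TSS, and site 4 (chr17:25562965-25569531, 6567 bp) was centred 4.438 kb downstream and ran past the 3′ end. They were separated by 191 bp and together covered 96.02% of the gene, including all of its 1409 coding bases. Site 4 was the widest site of the 24, and 1.073% of all sites were wider. *Sox8* was the only 1 of the 7 genes whose TSS lay inside a site, compared with 6.22% of all coding genes. Among the 2900 coding genes that were nearest to a site within 200 kb, the TSS was inside a site for 41.8%, compared with 1 of the 5 Sox genes. The 2 neighbouring sites differed in composition. Site 3 had a GC content of 64.01%, which 3.318% of all sites exceeded, and 4 copies of the GC box. Site 4 had a GC content of 52.49%, no GC box, 6 copies of the bHLH word CAGCTG and, in addition to its exact core, 3 words within 1 mismatch of it.

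The *Sox8* promoter is shown because it is the only promoter of the 7 genes that lay in a Gli3 site among those with a sequence in the RefSeq table used (*Sox1*, *Sox2*, *Sox21* and *Sox8*). All 300 bases, from 250 before to 50 after the RefSeq start, lay in site 3, and capitals mark the GC box.
*Sox8* promoter, chr17:25570637-25570936, minus strand: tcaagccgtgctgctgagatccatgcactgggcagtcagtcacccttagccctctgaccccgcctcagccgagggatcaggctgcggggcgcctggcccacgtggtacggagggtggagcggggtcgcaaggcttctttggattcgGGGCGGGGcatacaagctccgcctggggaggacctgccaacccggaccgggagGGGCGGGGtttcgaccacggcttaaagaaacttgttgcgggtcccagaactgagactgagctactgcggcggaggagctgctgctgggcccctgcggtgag
It contained 2 copies of GGGCGGGG, a word present in 17.59% of the 32851 promoters of the table, and no exact GLI core, which 0.2527% of them had. The promoters of *Sox1* and *Sox2* also contained 2 copies each and that of *Sox21* contained 0, and none of these 3 overlapped a site. The other 5 sites in the *Sox8* window were nearer to other genes. Site 2, 8.052 kb upstream, lay at the start of *Lmf1*, and site 1, 157.8 kb upstream, lay at the start of *Rpusd1* and contained 1 exact core in an intron of that gene. Sites 5, 6 and 7, from 52.51 kb to 141.6 kb downstream, were nearest to *Sstr5*, *Tekt4* and *Cacna1h*.

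*Sox9* had a site within the gene and a distant one. Site 2 (chr11:112782978-112786262, 3285 bp) began 754 bp past the TSS, was centred 2.396 kb downstream and lay wholly inside *Sox9*, of which it covered 59.33%. It left the TSS and most of exon 1 uncovered, with 38 of the 792 bases of exon 1, all 254 of exon 2 and 1591 of the 3089 of exon 3 in the site. It contained 74.16% of the coding bases. More than 50% of the gene lay inside sites for 2 of the 7 Sox genes, *Sox8* and *Sox9*, compared with 0.615% of coding genes. The share covered depends on gene length, which was 4795 bp for *Sox8* and 5537 bp for *Sox9* and was not matched in this comparison. No exact core was found in site 2, but 3 words within 1 mismatch were, the coding word printed above and 2 with the substitution A2G. The distant site 1 (chr11:112593844-112596023, 2180 bp) was intergenic, 187.3 kb upstream, with a GC content of 42.84% and 1 word within 1 mismatch, carrying A5G. The window limit cut through the sites around *Sox9*. A site of 3396 bp was centred 200046 bp downstream, just outside, and 3 more for which *Sox9* was the nearest coding gene lay 234.6 kb, 274.3 kb and 338.6 kb downstream. None of these 4 held an exact core. For *Sox2*, the sites just outside the limit were 206.2 kb and 208.6 kb upstream, with *Sox2* as their nearest coding gene, and the farthest site inside was at 42.66 kb.

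*Sox10*, the marker of oligodendrocyte precursor cells, had 3 sites in its window and was the nearest coding gene of 0. They were 126.1 kb, 136.6 kb and 176.3 kb downstream. The closest to *Sox10* had *Galr3* as its nearest coding gene, and the others had *H1f0*, the whole of which lay in the 4921 bp of the site at 136.6 kb. Just outside the window, a site 238.1 kb upstream was nearest to *Tmem184b*. With 500 kb allowed, *Sox10* had 10 sites and was still the nearest coding gene of 0.

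The 11 marked sites were wider than most. Their median width was 3003 bp (range 779 to 6567 bp) against 1995 bp over the 4099 sites on the assembled chromosomes, and 6 of 11 (54.55%) were wider than 3 kb, against 23.69% of all sites. The 13 sites of the windows that had another nearest coding gene had a median of 2030 bp, and the 9 sites nearest to another Sox gene a median of 2039 bp. The median GC content was 50.58%, against 51.39% over all sites, while the ratio of observed to expected CpG was 0.49 against 0.30. At a promoter, defined as within 2 kb of any annotated TSS, lay 3 of 11 sites (27.27%, 95% Wilson interval 9.746 to 56.56%), against 45.65% of all sites. Only *Sox8* site 3 was at the promoter of a Sox gene, and the other 2 were at the unverified transcripts beside *Sox2*. The interval contains the share of all sites, and no difference is claimed with 11 sites. These intervals cover counting error over sites and not the variation between embryos. They treat sites as independent, although the 11 lie near 5 genes and are among the sites they are compared with.

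**Figure D4:**
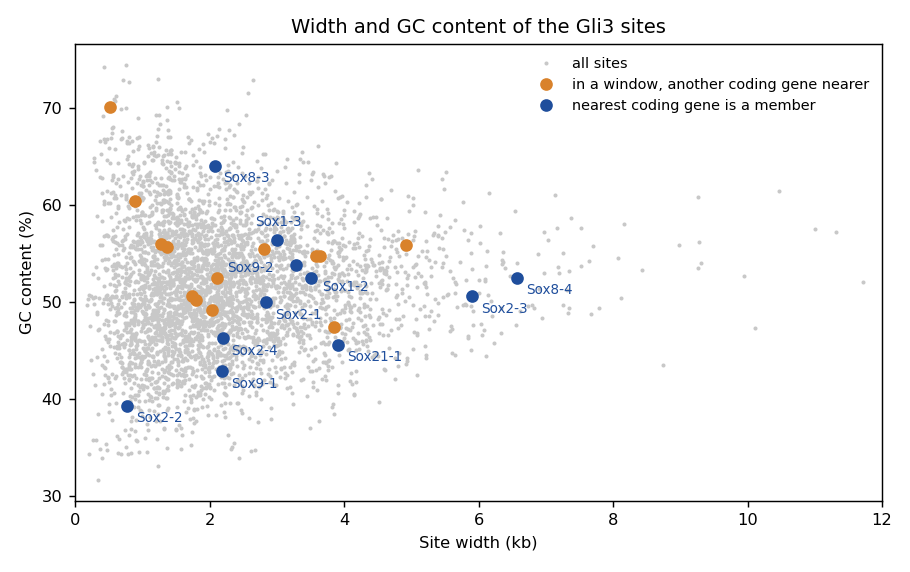
Width in kb (x axis) and GC content in percent (y axis) of each Gli3 site. Grey points are all 4099 sites, orange points the 13 window sites with another nearest coding gene and blue points the 11 nearest to a Sox gene, labelled by gene and site number; *Sox8* site 4 and *Sox2* site 3 are the widest of the 24, and *Sox2* site 2 has the lowest GC content.

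The exact GLI core was present in 3 of the 11 marked sites (27.27%, interval 9.746 to 56.56%), in 0 of their 22 flanking regions of the same length, in 12.25% of all sites and in 1.835% of all flanking regions. The interval includes the share of all sites. The flanks were not cleared of other Gli3 sites. A flank of *Sox8* site 3 lay inside *Sox8* site 4, and a flank of *Sox8* site 4 contained *Sox8* site 2. By subfamily, 1 of 7 SoxB sites and 2 of 4 SoxE sites held a core. Wider sites hold more sequence, and among all sites the share with a core was 10.52% up to 1 kb and 15.95% above 4 kb. Copies of the core per kb were 0.0828 in the marked sites, 0.06329 in all sites and 0.0853 in all sites outside promoters. They were 0 in the flanks of the marked sites and 0.008047 in the flanks of all sites. The 3 cores lay 529 bp, 1199 bp and 2738 bp from the middle of their sites. With 1 mismatch allowed, 7 of 11 sites had a word (63.64%), against 64.72% of all sites and 50% of the flanks of the marked sites. The 8-base start of the core, GACCACCC, was in 5 of 11 sites (45.45%, interval 21.27 to 71.99%). It was in 20.4% of all sites and 4.545% of the flanks of the marked sites. The interval lies above 20.4%, but it treats as independent 11 sites that lie near 5 genes. Over the 24 window sites the share was 33.33% (interval 17.97 to 53.29%). Copies per kb of GACCACCC were 0.138 in the marked sites and 0.1048 in all sites.

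Words of other factor families were counted on both strands of the same 11 sites, and each count is a description of letters, not of binding. TAATTA was present in 7 of 11 sites (63.64%, interval 35.38 to 84.83%), against 38.16% of all sites and 50% of the flanks, with 0.4416 copies per kb in the marked sites, 0.1932 in their flanks and 0.2624 in all sites. The SOX word AACAAT was in 6 of 11 sites (54.55%), against 51.21% of all sites and 63.64% of the flanks, and AACAAAG in 5 of 11 (45.45%), against 37.69% and 36.36%. CAGCTG was in 9 of 11 (81.82%), against 68.63% and 63.64%, and GGGCGGGG in 4 of 11 (36.36%), against 33.79% and 22.73%. Shares and densities did not always point the same way, also against the flanks, which have the lengths of the sites. The reason was not tested. CAGCTG had 0.3864 copies per kb in the marked sites, 0.552 in their flanks and 0.6747 in all sites, and AACAAAG had 0.1656, 0.1794 and 0.2296. AACAAT had 0.3588, 0.414 and 0.3958, and GGGCGGGG had 0.3312, 0.1794 and 0.2825. The octamer ATGCAAAT of POU factors, which pair with Sox2 on DNA, was in 1 of 11, *Sox1* site 3, against 11.76% of all sites. The word used for the nuclear factor I family was in 0 of 11, against 2.732% of all sites. The 0 of 11 allows a share of up to 25.88%. This word is not palindromic, and the palindromic site of the family was not searched. Both values therefore describe the word alone. For every word of this paragraph, the interval of the share in the 11 sites contained the share of all sites.

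**Figure D5:**
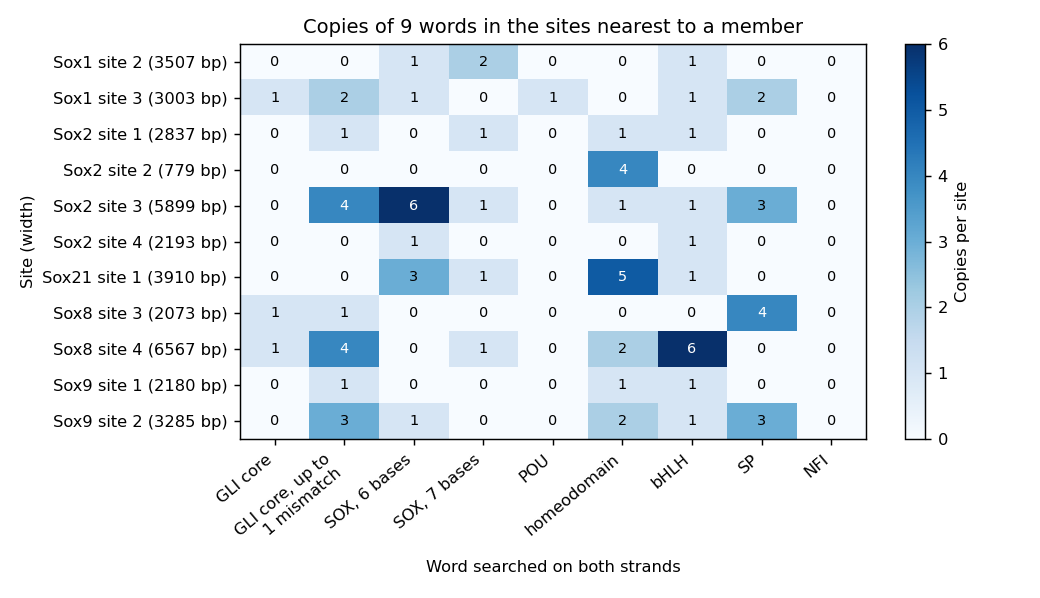
Number of copies of 9 words (columns, searched on both strands) in each of the 11 sites nearest to a Sox gene (rows, with the width in bp); darker blue means more copies. The GLI core column includes only exact matches and the next column also those with 1 mismatch; *Sox2* site 3 has 6 copies of the 6-base SOX word and *Sox8* site 4 has 6 copies of the bHLH word.

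The other 13 Sox genes of the annotation were the nearest coding gene of 9 sites in all. At least 1 site lay within 200 kb of 8 of the 13, compared with 53.2% of all coding genes. Of the 13, 5 were nearest to at least 1, compared with 13.2%. *Sox4*, a SoxC gene of maturing neurons, equalled *Sox2* with 4, but 3 of its 4 sites lay beyond 100 kb, while 3 of the 4 of *Sox2* lay between 2 kb and 20 kb. The TSS was inside a site for *Sox6*, *Sox11* and *Sox12*, compared with 6.22% of all coding genes. Of 13 genes listed as partners or targets of these Sox proteins, 11 had a site within 200 kb, 8 were nearest to at least 1 and 3 had their TSS inside a site. Over all coding genes these shares were 53.2%, 13.2% and 6.22%. Among the partners, *Pou3f3*, whose protein pairs with Sox2, was the nearest coding gene of 3 sites, and *Pou3f2* had its TSS in a site. Among stem cell genes, *Hes5*, a Notch effector, was covered over 100% of its length and was the nearest coding gene of 3 sites, *Nes* was covered over 48.05%, *Notch1* was the nearest coding gene of 1, and *Fabp7* had no site closer than 816.4 kb. The gliogenic factors *Nfib* and *Nfia* were the nearest coding genes of 2 sites and 1 site, with 2 and 4 sites within 200 kb. Among genes of oligodendrocytes and astrocytes, *Pdgfra*, *Myrf* and *Gfap* had sites in their windows but were nearest to 0, *Mbp* had 0 sites within 200 kb, and *Cspg4* was nearest to 1, its closest site lying at 29.04 kb. The position of the *Sox2* sites by distance, 3 from 2 to 20 kb and 1 from 20 to 100 kb, was not matched exactly by another coding gene, and 8 genes differed from it by 1 site.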

How the data were processed

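The deposited list has 4114 positions from 3 Gli3 ChIP and 3 input libraries of wild-type cortex at embryonic day 15, described in the methods as biological replicates. Per the file header, the authors mapped paired ends of 85 bases with Bowtie2 after removing repeats, then retained peaks of the IDR (irreproducible discovery rate) optimal set. The submitters' processing notes also name SAMtools, MACS2 and mm10. Versions and thresholds are not given in the sources used here. The columns used are start and end positions, which the deposited file holds in bases, with no count, signal or p-value.

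Starts were converted to 1-based coordinates. Genes came from GENCODE M21 and sequence from GRCm38, in which 8 of 8 start codons of the 7 genes read ATG. The 15 sites on unplaced scaffolds were left out of all measures of sites. Distances run from the site midpoint to the gene-level TSS. Sites were classed by midpoint as promoter (within 2 kb of any transcript TSS), UTR, exon, intron or intergenic. Flanks were 2 regions of the site's length, 1 site length from each edge. Other Gli3 sites were not excluded from them. Words were matched exactly on both strands, and the 8-base start of the GLI core, GACCACCC, overlaps the core. Shares have 95% Wilson intervals. No test between groups was possible with 1 pooled list. The genes named were the 7 Sox genes, the other Sox genes, the nearest and host genes of the sites, the listed partners and targets, and the 5 or fewer genes most like *Sox2* in the distance of its sites, of which 8 tied, so none is named. Of the listed partners and targets, 1 gene is not reported here. The members and lists were chosen with earlier results of these data known. Scripts were tested on simulated data and run with python 3.11.15, numpy 2.4.6, scipy 1.17.1 and matplotlib 3.10.9.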

Additional observations from a re-analysis of the deposited data

How the results depend on the processing

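The number of sites around the 7 genes followed the window, with 11 sites within 50 kb, 15 within 100 kb and 48 within 500 kb, against 24 within 200 kb. The number nearest to a Sox gene was 10 within 50 kb or 100 kb and 18 within 500 kb, against 11. It fell to 2, *Sox8* site 4 and *Sox9* site 2, when genes of any biotype were allowed, because noncoding and unverified transcripts start closer to the other 9 sites. The share of marked sites with the GLI core was 63.64% with 1 mismatch allowed and 0% in the central 200 bp, against 27.27%. Over all sites the share was 64.72% with 1 mismatch allowed and 1.708% in the central 200 bp, against 12.25%. The other 22 alternatives stayed within 1.5 times a count, the interval of a share or the spread behind a median, and among them 2 limits for the sites beyond 3′ ends (500 bp and 5 kb) were chosen after seeing the data. No paired analysis was possible because the 3 replicates were joined into 1 list. Leaving out a replicate and a stricter threshold were not run, since the list has no value per replicate and no score. Read depth is unknown, so the 0 sites within 200 kb of *Sox3* means none in this list.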

Other observations

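The exact GLI core of *Sox8* site 4 lay in the coding bases of the HMG box, and the same stretch was searched for in all 20 Sox genes. This comparison was chosen after the core was seen. The stretch was found in 9 of the 20 genes by a pattern of its codons. The 9-base word matched the core in *Sox8* alone. It differed at 1 position in *Sox9* and *Sox17* (A9C in both), at 2 in *Sox1* (C3A, A9G), *Sox2* (C3G, A9G), *Sox10* (C6T, A9G), *Sox14* (C3G, A9T) and *Sox18* (C6T, A9C), and at 3 in *Sox21* (C3G, C6T, A9C). The word lay inside a Gli3 site in 2 of the 9, *Sox8* and *Sox9*, 1.7 kb from the TSS in the former. Among all 591 copies of the exact core in Gli3 sites, 19 (3.215%) were in coding sequence, in 17 sites. These are counts of letters at positions, and binding at the word was not measured.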
